A study of Mus musculus with 2 samples.

Results

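The macrophage marker genes examined here are 10 genes by which resident and inflammatory macrophages are commonly recognised: Adgre1 (also written Emr1), Csf1r, Cd68, Lyz2, Cd163, Mrc1, C1qa, C1qb, C1qc and Cd14. They were followed in the dorsal skin of Mpzl3 null mouse pups set against wild-type littermates. Members were taken by gene symbol from array probes that name 1 gene. Of the 10 genes, 9 were found, with 13 probes, among 18855 genes with 31337 probes. Cd68 was not analysed here, since no probe in the annotation used names it.

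The study used 2 Agilent Whole Mouse Genome arrays with 2 dyes each, 1 for pups aged 9 days (P9) and 1 for pups aged 1 day (P1). On both arrays RNA of Mpzl3 -/- skin carried Cy5 and RNA of +/+ skin carried Cy3, per the labels, so genotype and dye cannot be told apart. The sources used here do not say how the null allele was made, nor whether a channel held RNA of 1 pup or of several. The direction of the deposited ratios is not stated, and they were read as Cy5 over Cy3, so that a positive value below stands for more signal from the null skin on the log2 scale. Were a ratio the other way round, every value of that array would change sign, and the share of genes lower than a marker would be the share higher. The titles of the arrays name their samples in opposite letter order, B before A at P9 and A before B at P1, and the labels do not say what the letters mean. Across the 16576 genes on both arrays the ratios had a Pearson correlation of 0.685, which describes genes that share probes and dyes and does not settle the direction. A ratio carries no level of expression, so whether this skin expressed the markers strongly or weakly could not be checked.

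With 1 array per age there was no replicate, no test was possible and no p-value is given, so that the number of arrays sets the precision. The only error at hand was the spread between different probes of 1 gene, with a pooled SD of 0.359 log2 at P9 and 0.361 log2 at P1, which says nothing of the spread between animals. This SD is for a single probe, and the matching error of a mean over several probes is smaller. A gene counted as higher or lower if the mean of its probes reached 2-fold, which is 1 on the log2 scale, with all of its probes on 1 side of 0. Mpzl3 itself was read by 1 probe, at 0.195 at P9 and −0.21 at P1. The sources used here do not place this probe relative to the deleted part, and it therefore does not check the labels. At P9 the channels also differed in sex-linked transcripts, with Xist at 3.67 ± 1.05 (SD, 4 probes) and the Y-linked gene Eif2s3y at −3.98, so that sex and genotype cannot be told apart in the P9 values. At P1 Xist read −1.03 ± 0.77 (SD, 4 probes), with 3 probes between −1.42 and −1.41 and 1 at 0.115. The Y-linked gene Uty read −1.99 ± 1.46 (SD, 4 probes) at P9 and 0.33 ± 0.57 (SD, 2 probes) at P1, where its probes lay on both sides of 0. The means of both genes thus lay on opposite sides of 0 at the 2 ages, and the part of sex in the P1 values and in the differences between the ages was not tested.

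Macrophages are tissue-resident phagocytes that clear dead cells and microbes, present antigen and release cytokines. In skin they lie mainly in the dermis and around hair follicles, while the related Langerhans cells lie in the epidermis. Their survival depends on the receptor encoded by Csf1r, which binds the ligands CSF1 and IL-34, and the transcription factor PU.1, encoded by Spi1, drives many of their genes. The other markers stand for separate functions, namely lysosomal digestion, uptake through scavenger and lectin receptors, the complement protein C1q, and sensing of bacterial lipopolysaccharide (LPS).

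The promoters are shown because some of them hold a motif in common, which the array values did not use. RefSeq promoters on build GRCm38.p6, each 300 bases long with 250 bases before the gene's start and 50 after it, were at hand for 6 of the 10 members. The 7-base PU.1 motif AGGAAGT, searched on both strands, was present in 4 of these 6, namely Mrc1, C1qb, C1qc and Lyz2, but not in Cd163 or Cd68, against 9.35% of all 32851 promoters in the table. Its matches can overlap those of the shorter PU.1 core GAGGAA, which was present in Mrc1, C1qb, C1qc and Cd68, against 28.3% of all promoters. The AP-1 motif TGANTCA and the C/EBP motif TTGCNNAA were each present in 1 of the 6, Cd68, against 7.81% and 10.8% of all promoters. A match describes letters in this window and not a bound site. The matches lie on the strand opposite to the gene, and the lines below therefore show them in capitals as ACTTCCT, with up to 40 bases on either side. Lyz1, the neighbour and near copy of Lyz2, is added for comparison.
Mrc1, chr2:14229164-14229249, plus strand: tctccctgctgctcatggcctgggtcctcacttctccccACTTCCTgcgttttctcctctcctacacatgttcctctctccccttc
C1qb, chr4:136886207-136886293, minus strand: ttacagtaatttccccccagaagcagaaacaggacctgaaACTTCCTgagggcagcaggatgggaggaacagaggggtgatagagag
C1qc, chr4:136893063-136893149, minus strand: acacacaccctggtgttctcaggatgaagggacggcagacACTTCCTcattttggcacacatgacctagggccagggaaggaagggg
Lyz2, chr10:117282326-117282412, minus strand: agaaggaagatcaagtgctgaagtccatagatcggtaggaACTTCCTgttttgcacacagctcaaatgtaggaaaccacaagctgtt
Lyz1, chr10:117292922-117293008, minus strand: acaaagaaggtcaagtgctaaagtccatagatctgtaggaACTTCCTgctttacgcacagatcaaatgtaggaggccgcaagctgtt

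The first question was whether macrophage markers differed between null and wild-type skin at each age. At P9, 0 of the 9 measured members passed 2-fold upwards and 0 downwards, where 2.24% of the 18269 genes measured were higher and 0.465% lower. At P1 the counts were again 0 and 0, where 1.72% of 17233 genes were higher and 1.17% lower. At a threshold of 1.5-fold, 1 member was lower at P9 (Mrc1) and 1 at P1 (Adgre1), where 3.3% of all genes were lower at P9 and 6.92% at P1. At that threshold 0 members were higher at either age, where 6.17% of all genes were higher at P9 and 9.08% at P1. The members did not share a direction. At P9, 5 lay above 0 and 4 below, with a median of 0.03, and at P1, 4 lay above 0 and 5 below, with a median of −0.06. The medians of all genes measured were 0.02 at P9 and 0.06 at P1. Mrc1 and Adgre1 were the lowest members at both ages, and Csf1r was the highest. In RNA of whole skin, fewer macrophages and less of a transcript per macrophage cannot be told apart.

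**Figure D1:**
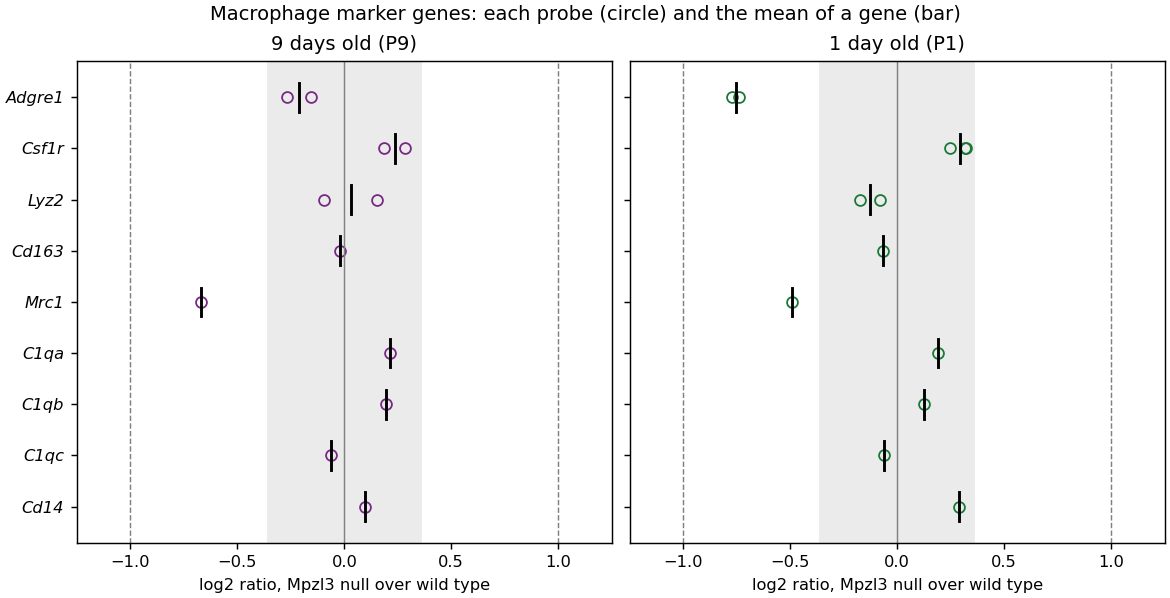
Log2 ratio of Mpzl3 null over wild-type skin (x axis) for the 9 measured macrophage markers (rows) at P9 (left) and P1 (right). Circles are single probes, black bars the mean of a gene, grey bands 1 pooled SD between probes (0.359 at P9, 0.361 at P1) and dashed lines 2-fold; Mrc1 alone lies left of the band at P9, and Adgre1 and Mrc1 do at P1.

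Surface receptors that define the lineage differed in sign. Adgre1 encodes F4/80, an adhesion G protein-coupled receptor used as the classical mouse macrophage marker. At P9 its 2 probes read −0.27 and −0.155, a mean of −0.21 ± 0.08 (SD, 2 probes). At P1 the same probes read −0.77 and −0.74, a mean of −0.755 ± 0.024 (SD, 2 probes) and a signal in null skin of 0.593 times that in wild-type skin. Both probes lay below 0 at both ages, and at P1 the mean was 2.09 pooled probe SDs from 0. Of all genes measured, 20.4% lay lower than Adgre1 at P9 and 3.46% at P1. A ratio of at least this size in either direction was read for 46.7% of genes at P9 and 7.64% at P1.

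Csf1r, the receptor for the growth factors of the lineage, lay on the other side of 0. At P9 2 of its 3 probes read 0.19 and 0.285, a mean of 0.24 ± 0.07 (SD, 2 probes), and the third was blank. At P1 the same 2 read 0.25 and 0.315 and the third 0.32, a mean of 0.30 ± 0.04 (SD, 3 probes). The probes of Csf1r thus had 1 sign at both ages, but the mean ratio, 1.18-fold at P9 and 1.23-fold at P1, was smaller than the pooled spread between single probes. From that spread, the error of the mean was 0.254 over 2 probes at P9 and 0.208 over 3 probes at P1. Of all genes measured, 42.4% had a ratio of at least this size at P9 and 47.7% at P1.

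Of the lysosome and granule genes, Lyz2 was measured and lay close to 0. It encodes lysozyme M, an enzyme that cleaves bacterial cell walls and is made by macrophages and neutrophils. Its 2 probes read −0.09 and 0.155 at P9, a mean of 0.03 ± 0.18 (SD, 2 probes). At P1 they read −0.17 and −0.08, a mean of −0.13 ± 0.07. The probes thus fell on either side of 0 at P9 and below 0 at P1. Lyz1, a lysozyme gene next to it, read 0.05 at P9 and −0.11 at P1. The promoters of the pair, compared base by base without gaps, were identical at 201 of 300 positions (67%). From 100 bases before the start to 50 after it, a window set after seeing the sequences, they were identical at 141 of 150 (94%). How far the probes of either gene take up signal of the other was not tested.

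The scavenger and lectin receptors were both below 0. Mrc1 encodes CD206, the mannose receptor that takes up glycoproteins in dermal macrophages and is also made by some endothelial cells. Its only probe read −0.67 at P9, or 0.628 times wild type, and −0.49 at P1, or 0.712 times wild type. Of all genes measured, 2.17% lay lower than Mrc1 at P9 and 10.3% at P1, and a ratio of at least its size in either direction was read for 7.06% and 23.9%. Its size at P9 was 1.87 pooled probe SDs. Cd163, which encodes the scavenger receptor for haptoglobin bound to haemoglobin, read −0.02 at P9 and −0.07 at P1 on 1 probe. Mrc1 lay further below 0 than Cd163 at both ages.

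The C1q genes encode the A, B and C chains that assemble into the recognition protein of the classical complement pathway, made largely by macrophages. The 3 genes lie next to each other on chromosome 4, in the order C1qb, C1qc, C1qa, with no other protein-coding gene between them in RefSeq. C1qa read 0.21 at P9 and 0.19 at P1. C1qb read 0.20 at P9 and 0.12 at P1. C1qc read −0.06 at both ages. Each chain rests on 1 probe, and the 6 values stayed within 0.214 of 0, which is under 1 pooled probe SD. The promoters of C1qb and C1qc printed above hold the same PU.1 motif, 53 and 195 bases before the start.

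Cd14 encodes the co-receptor that hands LPS to the TLR4 complex, and is made by monocytes, macrophages and neutrophils, among others. Its probe read 0.10 at P9 and 0.29 at P1, or 1.07-fold and 1.22-fold. Both values were smaller than the spread between probes.

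Set in order from the lowest at P9, the members ran from Mrc1 and Adgre1 through C1qc, Cd163, Lyz2, Cd14, C1qb and C1qa to Csf1r. At P1 the order was Adgre1, Mrc1, Lyz2, Cd163, C1qc, C1qb, C1qa, Cd14 and Csf1r. At each age 7 of the 8 gaps between neighbours were smaller than the pooled probe SD. The exceptions were the gap above Mrc1 at P9, between Mrc1 and Adgre1 (0.46), and the gap above Mrc1 at P1, between Mrc1 and Lyz2 (0.364). The latter barely passed the SD of 0.361. This SD is that of a single probe, whereas a gap carries the error of both genes, so passing it does not set Mrc1 apart. Of the 9 members, 8 lay within 1 pooled probe SD of 0 at P9 and 7 at P1, where 75.2% and 61.5% of all genes did.

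**Figure D2:**
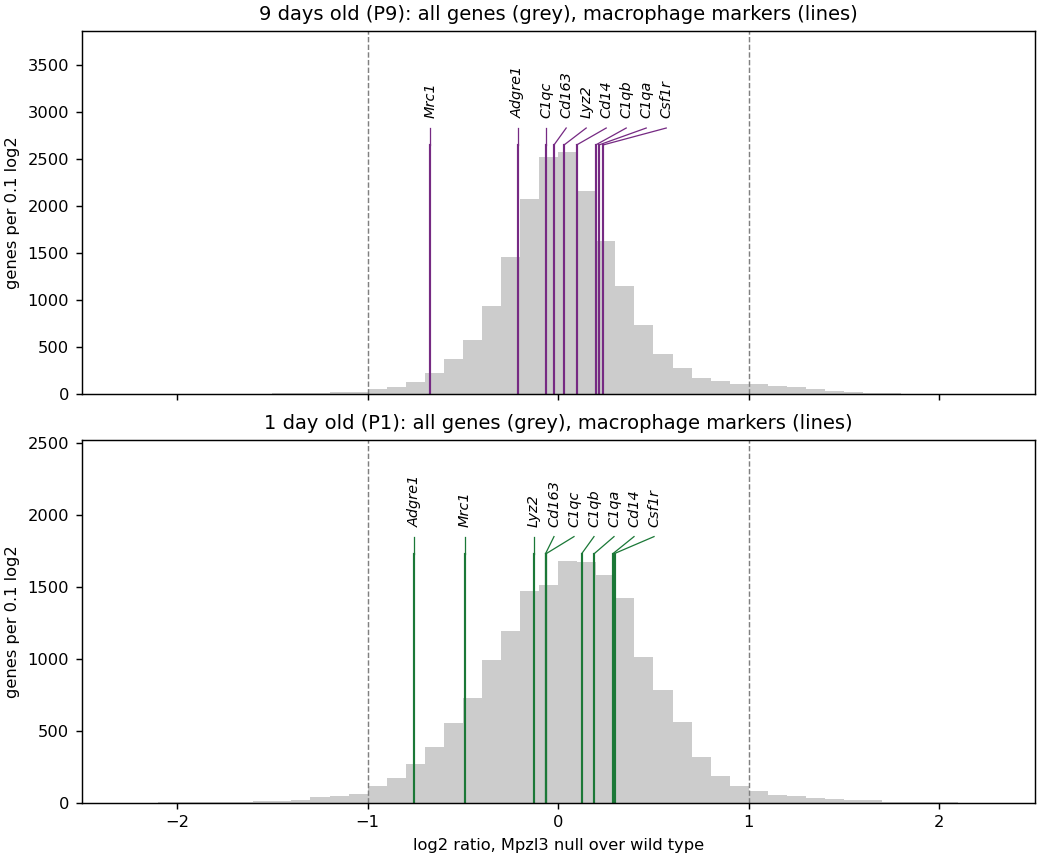
Number of genes per 0.1 log2 (y axis) by log2 ratio of null over wild type (x axis) at P9 (upper panel, 18269 genes) and P1 (lower panel, 17233 genes), with coloured lines at the 9 markers and dashed lines at 2-fold; genes beyond 2.5 in size are drawn in the outermost bars. Mrc1 at P9 (−0.67) and Adgre1 at P1 (−0.755) lie in the lower tail; at P1 Mrc1 (−0.49) is the next lowest, and the other markers lie nearer to the middle.

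The second question was whether the ratio between the genotypes was different at P9 than at P1. The difference P9 minus P1, over probes with a value on both arrays, had a median of 0.02 for the 9 members and of −0.01 for the 16576 genes measured on both. Adgre1 had the largest difference in size among the members, 0.54, with 0.505 and 0.583 for its 2 probes, and 8.75% of all genes had a larger one. The other 8 members lay between −0.19 (Cd14) and 0.16 (Lyz2). C1qc had the smallest difference at −0.001, and 99.6% of all genes had a larger one. The sign was the same at both ages for 8 of the 9 members (88.9%) and for 74.6% of all genes, and Lyz2 was the exception. Both arrays carried the dyes the same way and used the same probes, so a same sign at both ages is not independent support for a member.

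**Figure D3:**
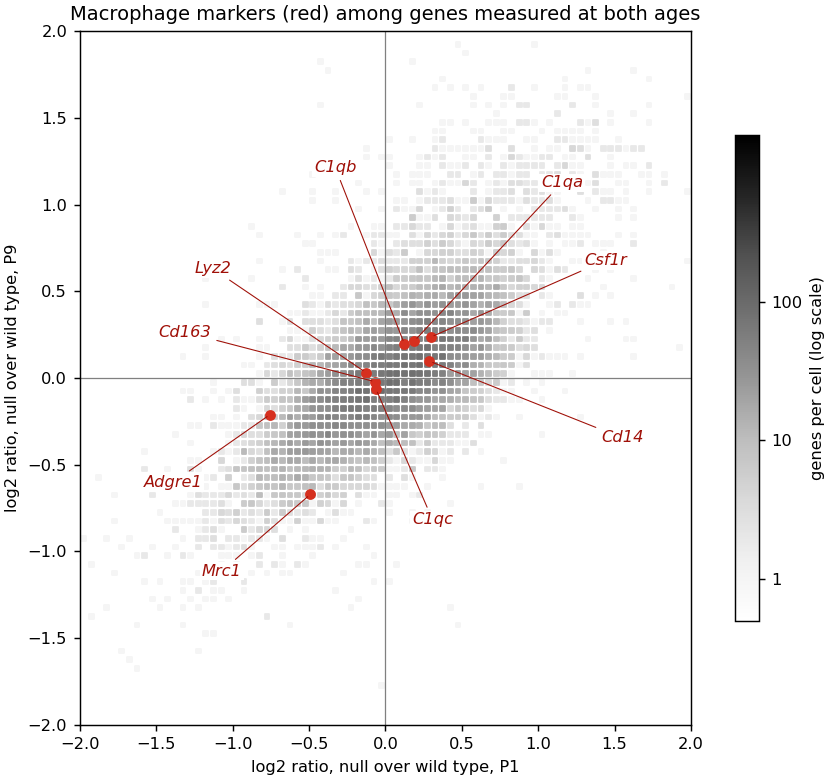
Log2 ratio of null over wild type at P9 (y axis) and P1 (x axis). Grey cells count the genes measured at both ages, with a logarithmic shade scale and 9 of 16576 genes outside the axes. Red points are the 9 markers, of which Adgre1 (−0.21 at P9, −0.755 at P1) and Mrc1 (−0.67 at P9, −0.49 at P1) were the lowest at both ages.

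Further genes of macrophage biology were taken from 10 lists of related function with 134 genes in all. Of these, 123 were measured at P9, with 3 past 2-fold upwards and 0 downwards, and 126 at P1, with 0 upwards and 5 downwards. The 3 higher at P9 were 2.44% of the genes listed and measured, close to the 2.24% of all genes, and the 5 lower at P1 were 3.97%, where 1.17% of all genes were lower. Of all genes, 0.465% were lower at P9 and 1.72% higher at P1. Their medians were 0.10 at P9 and −0.08 at P1, beside 0.02 and 0.06 for all genes. No test was made of these lists, and the counts describe the 2 arrays.

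Genes around the CSF1 receptor had 0 calls at either age, with a median of 0.19 over 12 genes at P9 and 0.39 over 11 genes at P1. With the median of a gene's probes in place of their mean, the medians of the list were 0.16 at P9 and 0.14 at P1. Il34, the ligand that keratinocytes make, read 0.48 at P9 and 0.65 at P1. Csf1, the other ligand, read 0.34 at P9 and 0.39 at P1. Irf8, a transcription factor of the monocyte lineage, read 0.17 ± 0.04 at P9 and 0.45 ± 0.16 at P1 (SD, 2 probes). Spi1, named here after its values were seen because it encodes PU.1, read 0.26 at P9 and 0.14 at P1. Both ligands and the receptor were thus above 0 and within 2-fold at both ages.

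Other genes of tissue macrophages held 4 of the 5 lower calls. At P9 0 of 18 genes were lower past 2-fold and 1 higher, with a median of −0.11, where 0.465% of all genes were lower and 2.24% higher. At P1 4 of 18 were lower and 0 higher, with a median of −0.24, where 1.17% of all genes were lower and 1.72% higher. Cd200r1, an inhibitory receptor of myeloid cells, read −0.64 ± 0.67 at P9 and −1.28 ± 0.32 at P1 (SD, 2 probes). Selenop, a selenium transport protein, read −0.88 at P9 and −1.17 at P1. Hpgds, a prostaglandin D synthase of haematopoietic cells, read −0.12 at P9 and −1.06 at P1. Ccr2, the chemokine receptor of recruited monocytes, read −0.42 ± 0.01 at P9 and −1.03 ± 0.39 at P1 (SD, 2 probes). These were the 4 genes lower at P1, and which cells of the skin made their transcripts was not tested. Cx3cr1, the fractalkine receptor, was the higher gene at P9 at 1.16 ± 1.07, although its 2 probes read 0.405 and 1.92, and at P1 it read 0.26 ± 0.09.

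Among the relatives of the members, Adgre4 read −0.16 at P9 and −0.75 at P1, beside −0.21 and −0.755 for Adgre1, whereas Adgre5 read 0.50 and 0.57. Cd163l1, a relative of Cd163, read 0.64 at P9 and 0.26 at P1. Of the 15 relatives 0 were called at either age. Among 14 other scavenger and lectin receptors, Colec12, a collectin with scavenger function, read −0.89 ± 0.78 at P9 and −1.13 ± 0.64 at P1 (SD, 2 probes). It was the 1 gene called, at P1, where 1.17% of all genes were lower. Clec7a, the beta-glucan receptor dectin-1, read 0.43 at P9 and −0.73 at P1.

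The partners of Cd14 and of C1q gave 0 calls at either age. Of the LPS receptor genes, Tlr4, the signalling receptor, read −0.38 at P9 and −0.81 at P1. The adaptors Ticam1 (0.22 at P9, 0.69 at P1) and Myd88 (0.43 at P9, 0.485 at P1) lay above 0. The list's median was 0.06 over 10 genes at P9 and −0.07 over 12 genes at P1. Of the classical complement pathway, C4b, which C1q-bound proteases cleave, read 0.62 at P9 and 0.83 at P1, and C5ar1, the receptor for the C5a fragment, −0.345 at P9 and 0.03 at P1. C4bp read 0.22 at P9 and 0.67 at P1, with its 2 probes on opposite sides of 0 at both ages. This list had medians of 0.06 at P9 and 0.09 at P1, over 12 genes each.

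Genes of lysosomes and the NADPH oxidase, the setting in which Lyz2 acts, had 0 calls and a median of 0.26 at both ages over 12 genes. Lamp2, a lysosomal membrane protein, read −0.57 ± 0.41 at P9 and −0.69 ± 0.33 at P1 (SD, 3 probes). Ctss, the cathepsin of antigen-presenting cells, read −0.01 at P9 and −0.72 at P1, and Ncf1, an oxidase subunit, 0.51 and 0.345. Myeloid integrins, Fc receptors and adaptors had 1 call at P9 and 0 at P1, with medians of 0.23 and −0.04 over 13 genes. At P9, 2.24% of all genes were called higher. The call was Itgax, which encodes CD11c of dendritic cells and some macrophages, at 1.123 ± 0.67 at P9, against 0.70 ± 0.62 at P1 (SD, 2 probes). Fcer1g, an adaptor of Fc receptors, read 0.42 at P9 and 0.11 at P1, and Cd48, a leukocyte surface protein, −0.38 and −0.76.

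Products of activated macrophages lay mostly above 0 at P9 and mostly below it at P1. Inflammatory products had a median of 0.27 at P9, with 9 of 10 genes above 0, and of −0.41 at P1, with 9 of 11 below 0. For comparison, 53.4% of all genes lay above 0 at P9 and 55.8% at P1. Il1b was the 1 gene called, at 1.045 at P9, where 2.24% of all genes were higher, against −0.46 at P1. Ccl2, a chemokine that draws monocytes, read 0.815 at P9 and −0.41 at P1, and Ccl3 read 0.215 and −0.81. Ptgs2, the inducible cyclooxygenase, read 0.09 ± 0.07 at P9 and −0.90 ± 0.09 at P1 (SD, 2 probes). Of the 10 inflammatory products on both arrays, 8 had a higher ratio at P9 than at P1. The exceptions were Tnf (0.33 at P9, 0.35 at P1) and Nos2 (−0.115 at P9, −0.08 at P1). Genes of alternative activation had 0 calls, with medians of 0.20 over 9 genes at P9 and −0.17 over 10 genes at P1. Among them were Chil3 at 0.60 and −0.31 and Il10 at 0.75 and 0.10. Of the 9 on both arrays, 7 had a higher ratio at P9 than at P1. The exceptions were Retnla (−0.50 at P9, 0.16 at P1) and Ccl22 (−0.37 at P9, −0.10 at P1). The difference P9 minus P1 had a median of 0.89 for the inflammatory products over 10 genes and of 0.42 for alternative activation over 9, beside 0.02 for the macrophage markers, and these were not tested against each other. These transcripts are also made by keratinocytes and other leukocytes, and their source was not tested.

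**Figure D4:**
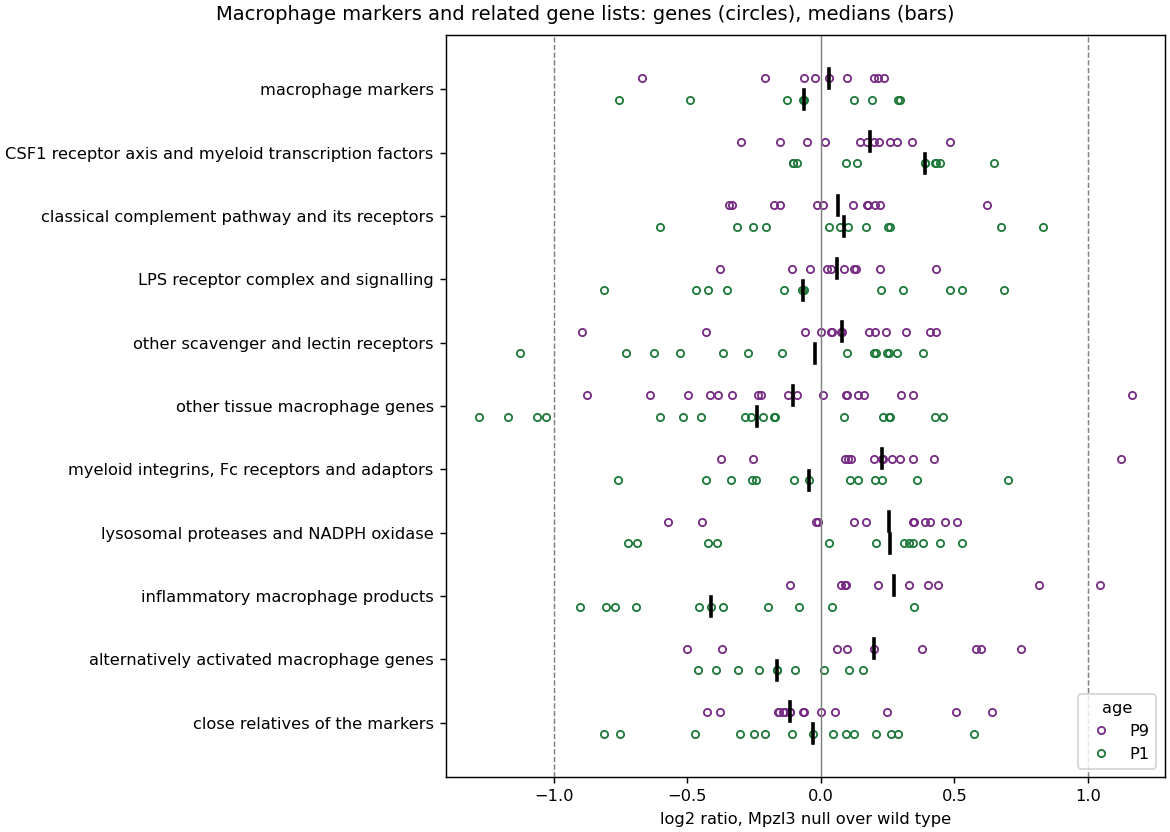
Log2 ratio of null over wild type (x axis) for the 9 macrophage markers and for the genes of 10 related lists (rows) at P9 (purple) and P1 (green). Circles are genes, black bars medians and dashed lines 2-fold; the inflammatory products have a median of 0.27 at P9 and −0.41 at P1, and the markers 0.03 and −0.06.

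Markers of other cells in the skin were read on the same arrays. Of 6 measured fibroblast markers, 5 lay below 0 at P9 and 4 at P1, with medians of −0.30 and −0.41. Of all genes, 8505 of 18269 lay below 0 at P9 and 7600 of 17233 at P1. Col1a2 was lower past 2-fold at P9 (−1.20), where 0.465% of all genes were. Dcn (−1.56) and Col1a2 (−1.12) were lower at P1, where 1.17% of all genes were. The other fibroblast markers did not pass 2-fold. Lum read −0.75 at P9 and −0.66 at P1, Col3a1 −0.04 and −0.15, Pdgfra −0.16 and 0.05, and Col1a1 0.07 and 0.32. All 7 skeletal muscle markers lay above 0 at both ages, with medians of 0.29 at P9 and 0.84 at P1, where 53.4% and 55.8% of all genes lay above 0. None of them passed 2-fold at P9, and Acta1 (1.136) and Actn3 (1.337) did at P1, where 2.24% and 1.72% of all genes were higher. The neutrophil list, whose cells also make Lyz2 and Cd14, had medians of 0.30 at P9 and 0.20 at P1 over 10 genes each, and at P9 S100a9 read 2.04 and Camp −1.055. The 4 lymphatic endothelial markers, of a cell type that can make Mrc1, had medians of −0.01 at P9 and −0.07 at P1, with 2 of 4 below 0 at each age. The part that the tissue make-up of the RNA had in the values of Mrc1 and Adgre1 was not tested.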

How the data were processed

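RNA from dorsal skin of Mpzl3 null pups and wild-type littermates was hybridised to 2 Agilent arrays with 2 dyes. The table the authors deposited holds 39212 rows of log ratios, some of them control spots or blank, read here as log2. Background correction, dye normalization and the reason for blank cells (4.71% at P9, 11.3% at P1) are not stated, nor are the scale, centring and direction of the values. Base 2 was inferred from the largest size over all rows, 4.898. That is 29.8-fold in base 2, 134.0-fold as a natural logarithm and 79068-fold in base 10. It does not settle between base 2 and the natural logarithm. Direction was taken as Cy5 over Cy3 from the labels' dyes, and column medians were 0.005 at P9 and −0.007 at P1. No column was of an unmapped sample.

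Gene names came from the platform annotation, with symbols updated through Entrez identifiers to RefSeq GRCm38.p6 (31210 probes matched, 127 not). Probes of 1 gene were averaged. The named genes were all members, from each other list the genes called and the 2 of largest size at each age, Lyz1, and sex-linked genes, of which the text gives a selection. Some other genes of the lists are also given. They were chosen after their values were seen and are not counted among the named genes. Genes of like pattern were not searched for, since a pattern over 2 arrays is 2 values. The members and lists were chosen with earlier results of these data known. Calculations used Python 3.11.15, numpy 2.4.6 and pandas 2.3.3. The code was run on simulated data whose planted changes lay well past the 2-fold threshold, which says nothing of ratios as small as those of the members. No protein sequence was used here.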

Additional observations from a re-analysis of the deposited data

Results flagged for a closer look

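None of the 9 members had all of its probes on 1 side of 0 at P9 and on the other side at P1. Of the 75 named genes measured on both arrays, sex-linked genes left out, 16 did. These differences between the ages were not tested, as there was 1 array per age. For comparison, the mean kept its sign at both ages for 74.6% of all genes, so a change of sign was common. That share rests on means and not on every probe, and most named genes outside the members were picked for their size. Above 0 at P9 and below 0 at P1 were 10 genes. Their differences of P9 minus P1 were 2.63 for S100a9, 1.503 for Il1b, 1.23 for Ccl2, 1.16 for Clec7a, 1.02 for Ccl3, 1.02 for S100a8, 0.995 for Ptgs2, 0.91 for Chil3, 0.62 for Cd79a and 0.16 for Lyz1. Below 0 at P9 and above 0 at P1 were 6 genes. Their differences were −1.12 for Camp, −0.995 for Plin1, −0.55 for Tpsb2, −0.38 for C5ar1, −0.31 for Cd79b and −0.25 for Emcn. Of these 16 genes, Ptgs2 rests on 2 probes and the others on 1 each. Among the macrophage markers the difference of largest size was 0.54, for Adgre1, which lay below 0 at both ages.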

How the results depend on the processing

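No paired analysis was possible because each age has 1 array. With the median of the probes, with probes on both arrays only, with arrays centred, and with arrays centred and scaled to 1 spread, the 9 members kept their sign at both ages and moved by less than the spread between probes. Mrc1 ranged from −0.81 to −0.67 at P9 and Adgre1 from −0.77 to −0.67 at P1. Over all alternatives, those that leave out members included, the median of the members ranged from 0.02 to 0.09 at P9, from −0.13 to 0.03 at P1 and from 0.02 to 0.04 for the difference between ages. The count of lower members depended on the threshold. At 1.5-fold it was 1 at P9 (Mrc1) and 1 at P1 (Adgre1), where 3.3% and 6.92% of all genes were lower, and with the values read as natural logarithms it was 0 at P9 and 1 at P1 (Adgre1). Alternatives for the other lists were added after seeing the data. At 1.5-fold, 8 of their genes were higher and 3 lower at P9, and 4 higher and 18 lower at P1, where 6.17% of all genes were higher and 3.3% lower at P9, and 9.08% higher and 6.92% lower at P1. Read as natural logarithms, 5 were higher and 2 lower at P9, and 2 higher and 13 lower at P1. Centred and scaled to 1 spread, 3 were higher and 2 lower at P9, and 0 higher and 2 lower at P1. The shares of all genes under these last 2 alternatives were not computed. Their counts, those of the members included, can therefore not be set beside a background. No spot signal was used here, so dim and bright probes could not be told apart.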

Other observations

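Markers of Langerhans and dendritic cells, the antigen-presenting neighbours of macrophages in skin, lay mostly above 0. Of the 10 measured at P9, 8 did, with a median of 0.40 and 1 past 2-fold, Itgax, and of the 11 measured at P1, 9 did, with a median of 0.29 and 0 past 2-fold. Among all genes, 53.4% lay above 0 at P9 and 55.8% at P1, and 2.24% and 1.72% were higher past 2-fold. Xcr1, the chemokine receptor of cross-presenting dendritic cells, read 0.87 at P9 and 0.57 at P1. The MHC class II gene H2-Eb1 was blank at P9 and read 0.695 at P1. The other class II genes of the list read lower at P1, H2-Ab1 at 0.38 and H2-Aa at −0.06, and 0.445 and 0.14 at P9. Mast cell markers had medians of −0.04 over 7 genes at P9 and 0.03 over 6 genes at P1, with Ms4a2 past 2-fold at P9 at 1.005 and blank at P1. T cell markers had medians of 0.09 at P9 and 0.175 at P1 over 7 genes each. B cell markers had medians of 0.13 over 4 genes at P9 and 0.07 over 3 at P1. Endothelial markers had medians of −0.11 at P9 and 0.05 at P1 over 7 genes. No gene of the T cell, B cell and endothelial lists passed 2-fold other than Cd4 at P1, at 1.37 on 1 probe. The second Cd4 probe was blank at P1, and at P9 the 2 probes read −0.15 and 1.19, on opposite sides of 0. Over the Cd4 probe with a value on both arrays, the difference P9 minus P1 was −0.18.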
